A study of Mus musculus with 18 samples.

Results

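The 38 genes described here encode sensors of double-stranded RNA (dsRNA) and proteins that interferon induces. They were taken by name from a fixed list, and all 38 were found among the 55536 genes of GENCODE M21 on the mouse genome build GRCm38. A total of 24 of the 38 genes had at least 1 peak on their own strand in the 18 libraries, and 14 had none. The libraries came from livers of mice aged 8 to 9 days in 2 genotypes, with 3 replicates per genotype and fraction. Editing-deficient mice were Adar-/-; Mavs-/-, and the control mice, which the sample titles call wild-type, were Mavs-/-. Both genotypes therefore lacked MAVS, the adaptor through which MDA5 and RIG-I signal. The double mutants came from an intercross of the single mutant strains that was then backcrossed. The 3 fractions were undigested total RNA (input), RNA digested with RNase A/T1 alone (RNase-only), and RNA digested after incubation with recombinant mouse MDA5ΔCARD (MDA5-protected). The libraries were described by the study as biological triplicates.

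MDA5, RIG-I and LGP2 are cytoplasmic helicases that bind viral or self dsRNA, and MDA5 forms filaments along long duplexes. Through MAVS, MDA5 and RIG-I lead to type I interferon, which acts on its receptor, on STAT2 and IRF9, and on the promoters of many interferon-stimulated genes. Many of these promoters carry an interferon-stimulated response element (ISRE), to which IRF9 binds, while interferon gamma acts through the GAS element. ADAR1 changes adenosine to inosine in dsRNA and keeps self RNA from activating MDA5.

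A peak is a stretch of the genome, on 1 strand, in which reads passed the peak caller's limits in 1 library. In input such a stretch shows abundant RNA. In the digested fractions it shows RNA that resisted the nuclease relative to input. The measure used below is the number of exonic bases of a gene that peaks on its own strand covered. Reads per peak and the depth of each library are not in the lists. The paper gives approximate ranges of reads, which were not used here. A gene without a peak is a gene without a called peak, not a gene without RNA. In bulk liver RNA, fewer cells of a type and less RNA per cell cannot be told apart.

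The input lists held 6991 to 8948 peaks in editing-deficient and 4326 to 6625 in Mavs-/- livers, so that the genotypes did not overlap in the number of peaks. All 8 hepatocyte markers, such as Alb, had input peaks in all 6 libraries. None of the 5 markers of T, B and NK cells had a peak in input. Of the 8 Kupffer cell and macrophage markers, 6 to 7 had a peak in each input library, with summed exonic coverage of 5660 to 6118 bases in editing-deficient and 5123 to 5553 bases in Mavs-/- livers. Of the 5 neutrophil markers, 4, 2 and 0 had a peak in editing-deficient replicates 1, 2 and 3, against 5, 3 and 5 in Mavs-/- livers, and their summed coverage was 0 to 2169 against 1430 to 2505 bases. The 6 erythroid markers covered 1933 to 3589 against 3887 to 7441 bases, with Alas2, the erythroid enzyme of heme synthesis, at 0 in all editing-deficient libraries. For endothelial markers the ranges were 1516 to 2132 against 0 to 1321 bases, and for stellate cell and fibroblast markers 511 to 1173 against 2324 to 5044 bases. The part of these cell types in the results below was not tested. Adar, the targeted gene, had an input peak of 452 coding bases in editing-deficient replicate 2 and of 285 in replicate 3, both in exon 3 of 16, and none in the other input libraries. The deleted part of Adar is not given in the sources used here, so these peaks do not check the genotype. Mavs had no own-strand peak in any library.

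Sequence in the promoters of these genes was compared first, since it does not depend on the peaks. RefSeq promoter windows of 300 bases (250 before to 50 after a start, build GRCm38.p6) were at hand for 30 of the 38 genes. The core of the ISRE was searched as GAAA, any 2 bases and GAAA again, on both strands, and was present in 16 of these 30 genes (53.3%), against 3.99% of all 27025 genes and 3.44% of all 32851 windows. The GAS letters TTCNNNGAA, which read alike on both strands, were present in 8 of 30 genes (26.7%), against 9.55% of all genes and 8.3% of all windows. The list was assembled from genes known to respond to interferon, so the excess describes the list and was not tested. Among the 14 matched genes with an exonic input peak 7 held an ISRE core, and among the other 16 matched genes 9 did. The 7 with both an input peak and an ISRE core are shown because their RNA is compared below, each with the match nearest to the start in capitals and 10 bases on either side, written along the strand of the gene.
Isg15 (chr4:156200865-156200894, minus strand): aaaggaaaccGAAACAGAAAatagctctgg
Bst2 (chr8:71537577-71537606, minus strand): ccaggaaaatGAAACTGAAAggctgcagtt
Ifitm3 (chr7:141010723-141010752, minus strand): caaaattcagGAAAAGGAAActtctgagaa
Stat2 (chr10:128270266-128270295, plus strand): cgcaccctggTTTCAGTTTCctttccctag
B2m (chr2:122147538-122147567, plus strand): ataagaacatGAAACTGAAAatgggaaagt
Gbp2 (chr3:142620594-142620623, plus strand): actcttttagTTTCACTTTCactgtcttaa
Igtp (chr11:58199512-58199541, plus strand): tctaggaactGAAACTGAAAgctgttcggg

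The capitals of Gbp2 and Stat2 are the core read from the other strand. Of the members with an input peak, Irf1 and Psmb8 had no ISRE core in their windows but held the GAS letters, which are shown in capitals.
Irf1 (chr11:53769914-53769942, plus strand): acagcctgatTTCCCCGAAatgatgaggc
Psmb8 (chr17:34198088-34198116, plus strand): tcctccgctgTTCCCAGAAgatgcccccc

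A match is a run of letters and not a measured binding site, and a window without one says nothing about the factor.

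In input, 16 of the 38 genes had an exonic peak in at least 1 library. In editing-deficient livers 6, 16 and 15 of them were detected in replicates 1, 2 and 3, and in Mavs-/- livers 6, 4 and 8. The mean was 12.3 ± 5.51 against 6 ± 2 genes per library (SD, n = 3 each), and the groups overlapped because editing-deficient replicate 1 lay within the Mavs-/- range. Detection also differed over all genes. An exonic input peak was found for 3052, 3713 and 3754 genes in editing-deficient and for 2264, 1935 and 3053 in Mavs-/- livers. The exonic bases covered over all members were 8284, 18665 and 19110 in editing-deficient and 4900, 3947 and 7357 in Mavs-/- libraries. The groups did not overlap in this sum, with a mean of 15353 ± 6126 against 5401 ± 1759 bases. The bases covered by all peaks did not overlap either, at 3391684 to 3510219 in editing-deficient and 1746321 to 2470120 in Mavs-/- libraries. Per megabase (Mb) of sequence covered in a library, the members' sum was 2360, 5503 and 5629 against 2381, 2260 and 2978 bases, and the groups overlapped through editing-deficient replicate 1. They also overlapped when Rnf213 was left out of the sum, at 4724, 12429 and 13264 against 4900, 3947 and 5325 bases.

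**Figure D1:**
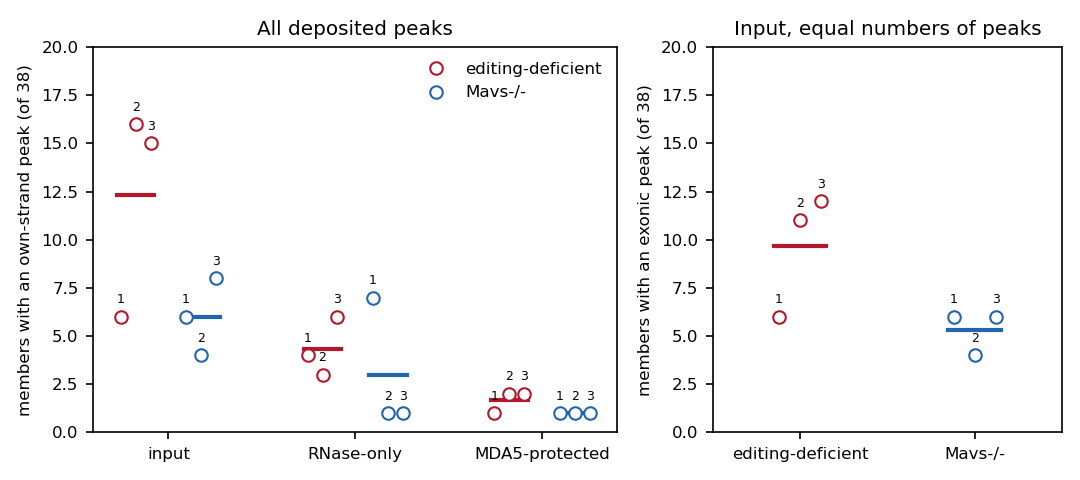
Number of the 38 genes with an own-strand peak per library, for all deposited peaks in the 3 fractions (left) and for the 4326 strongest peaks of each input library (right). Points are libraries numbered by replicate and bars are group means of 3 libraries, and editing-deficient input replicate 1 has 6 genes in both panels while replicates 2 and 3 have 16 and 15, or 11 and 12 with equal numbers of peaks.

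Editing-deficient input replicate 1 stood apart from the other 2 libraries of its group. It had peaks over Ifitm3, Rnf213, Stat2, B2m, H2-K1 and H2-D1 only. Its list of 6991 peaks was longer than each of the Mavs-/- lists. Over all genes it also had fewer with an exonic peak, 3052, than replicates 2 and 3, with 3713 and 3754. That number lay within the Mavs-/- range, 1935 to 3053. Values are therefore given with and without this library below. It was singled out after its values for these genes were seen, so a count made without it is a description of the remaining 5 libraries.

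The exonic bases covered in editing-deficient libraries exceeded those in all Mavs-/- libraries for 2 of the 16 members with an input peak (12.5%), Rnf213 and H2-K1, and for 870 of 5276 genes with an input peak overall (16.5%). The share among members was thus near that of all genes. Lower coverage with groups not overlapping was found for 0 of the 16 members and for 3.01% of all genes. This balance depended on the scaling. Per Mb covered, 1 member was higher (Rnf213) and 4 were lower (Ifitm3, B2m, H2-K1 and H2-D1), against 8.98% of all genes higher and 17.4% lower. For Ifitm3 and B2m the lower call was fixed by the scaling. Even full coverage of these short genes, divided by the larger editing-deficient totals, would lie below every Mavs-/- value. The two-sided exact permutation test of 3 against 3 libraries cannot give a p under 0.1, and the smallest Benjamini-Hochberg adjusted p over all 5276 genes was 0.513, so no single gene passed a threshold of 0.05. The median difference between group means was 298.5 bases over the 16 members and 114 bases over all genes with an input peak, in both cases in favour of the editing-deficient livers. Zbp1, Isg15, Parp14, Irf1, Irf9, Psmb8, Tap1 and Gbp2 had input peaks in editing-deficient libraries only, so their differences could only be positive. These medians were not scaled to the bases covered, and the gap between them was not tested.

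Leaving out editing-deficient replicate 1 gave 12 of 16 members with higher coverage and groups not overlapping (75%), against 25.7% of all genes, and 0 members with lower coverage, against 4.89% of all genes. Leaving out any other input library gave 2 to 4 members, against 19% to 24.5% of all genes, with 4 (Rnf213, B2m, H2-K1 and H2-D1) when Mavs-/- replicate 3 was left out. Because the longer lists came from editing-deficient livers, the count was repeated with the 4326 strongest peaks of every input library, as many as the smallest list held. Then 3 of 13 members with a peak (Rnf213, H2-K1 and H2-D1) were higher, against 10.7% of all genes. With equal numbers of peaks and without editing-deficient replicate 1 this count was 8 of 13 members (61.5%), namely Ifitm3, Rnf213, Irf1, H2-K1, H2-D1, Tap1, Gbp2 and Igtp, against 14.8% of all genes.

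A second rule asked for an exonic input peak in at least 2 of 3 libraries of 1 genotype and in none of the other. It was met in favour of the editing-deficient livers by 7 of 16 members (43.8%), Zbp1, Isg15, Irf1, Irf9, Psmb8, Tap1 and Gbp2, against 14.3% of all genes. In favour of the Mavs-/- livers it was met by 0 of 16 members, against 2.45% of all genes. For all 7 members the 2 libraries were editing-deficient replicates 2 and 3. The editing-deficient lists were longer. With the 4326 strongest peaks of every input library, Irf1, Tap1 and Gbp2 kept peaks in both replicates and Psmb8 in replicate 3 only. Zbp1, Isg15 and Irf9 then had none, and the share of all genes that met the rule was not counted.

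**Figure D2:**
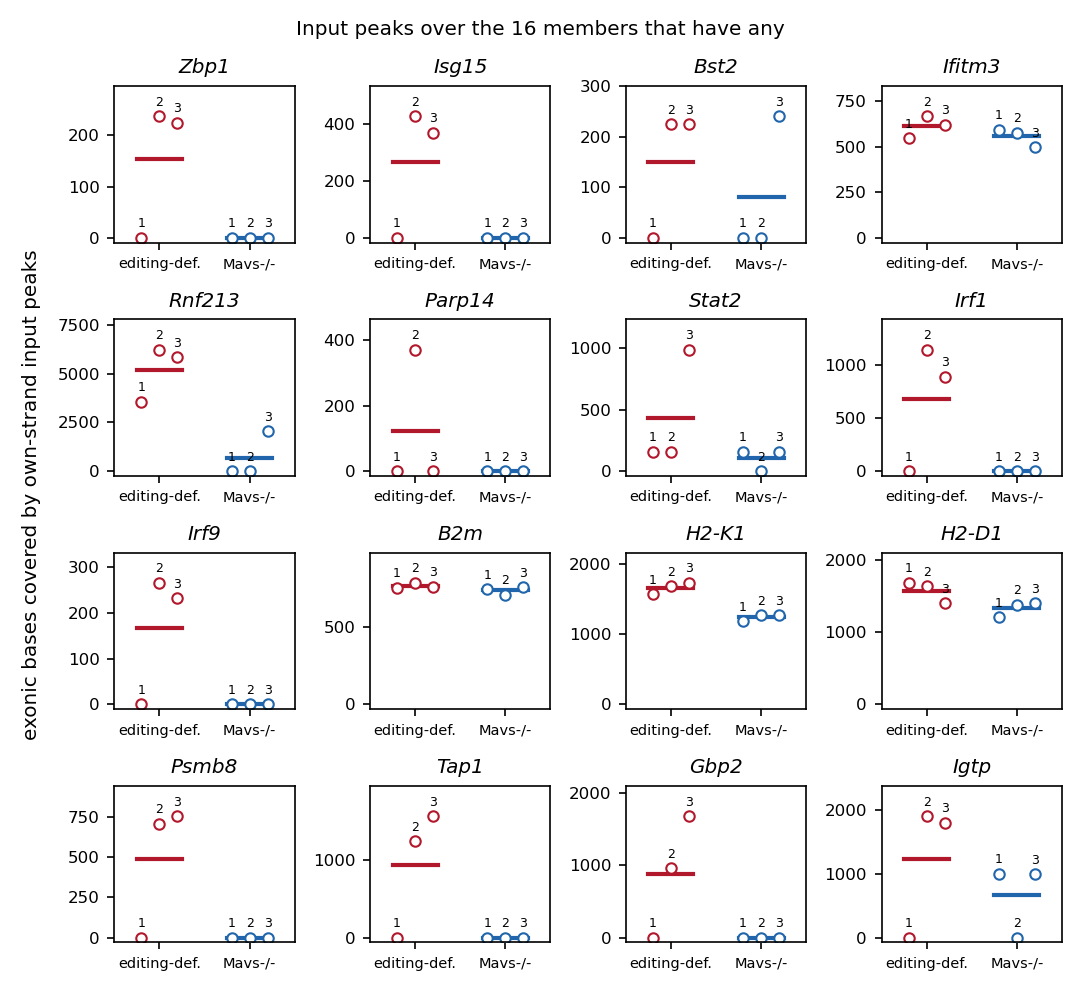
Exonic bases covered by own-strand input peaks for the 16 members with any such peak, 1 panel per gene, each vertical axis including 0. Points are libraries numbered by replicate and bars are group means of 3 libraries, and editing-deficient replicate 1 is at 0 for 10 of the genes while it lies above all Mavs-/- libraries for Rnf213, H2-K1 and H2-D1.

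Among the RNA sensors, Zbp1, which binds left-handed nucleic acid and triggers cell death, was the one with an input peak. Its coverage was 0, 237 and 225 bases in editing-deficient replicates 1 to 3 and 0 in the 3 Mavs-/- libraries (exact permutation p = 0.4). Both peaks lay in the coding part of exon 2. They were weak, at the 31st and 38.8th percentile of peak area within their libraries, and neither was among the 4326 strongest peaks. Ifih1 (MDA5), Ddx58 (RIG-I), Dhx58 (LGP2), Eif2ak2 (the kinase PKR, which halts translation on dsRNA) and Tlr3 (the endosomal dsRNA receptor) had no input peak in any library. The same was true of the 4 members of the OAS family, which make the 2′-5′ oligoadenylates that activate RNase L, and of the 3 members of the IFIT family, which bind foreign RNA ends.

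Isg15, a ubiquitin-like protein that is coupled to other proteins, was covered over 0, 428 and 371 bases in editing-deficient livers and 0 in all Mavs-/- livers (exact permutation p = 0.4). The peaks lay in the coding part of its last exon and covered 56.6% and 49.1% of its exonic length. They too were not among the 4326 strongest. Usp18, the protease that removes ISG15, and Herc6, a ligase of that pathway, had no input peak.

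Rnf213, a very large ubiquitin ligase with antimicrobial activity, showed the largest difference in bases among the members. Coverage was 3560, 6236 and 5846 bases in editing-deficient and 0, 0 and 2032 bases in Mavs-/- livers. All editing-deficient libraries lay above all Mavs-/- libraries, with means of 5214 ± 1446 and 677 ± 1173 bases (SD, n = 3, exact permutation p = 0.1). The order held with equal numbers of peaks, at 2497, 5016 and 4522 against 0, 0 and 1841 bases. It also held per Mb covered, at 1014, 1839 and 1722 against 0, 0 and 823. The strongest Rnf213 peak was at the 87.7th, 98.5th and 95.4th percentile of peak area in the editing-deficient libraries and at the 74.1st in Mavs-/- replicate 3. In editing-deficient replicate 1 the 2 peaks fell in exons 25 and 28 of 68, while replicates 2 and 3 had 13 peaks each.

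The remaining antiviral effectors differed among themselves. Ifitm3, which blocks the entry of enveloped viruses, was covered in all 6 libraries, at 549, 668 and 622 against 595, 579 and 499 bases (exact permutation p = 0.4), and the groups overlapped. Bst2, the tethering factor of budding virions, had a peak in its first exon in editing-deficient replicates 2 and 3 (224 bases each) and in Mavs-/- replicate 3 (240 bases). Parp14, an ADP-ribosyltransferase, had 1 peak of 371 bases in editing-deficient replicate 2. Rsad2, Mx1, Mx2, Ifi27 and Xaf1 had no input peak.

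Of the interferon signalling genes, Irf1, a transcription factor at the head of the interferon gamma response, was covered over 0, 1142 and 888 bases in editing-deficient livers and 0 in all Mavs-/- livers (exact permutation p = 0.4). Its largest peaks, in exon 11 of the joined exon model, reached the 84.7th and 80.2nd percentile of peak area. Irf9, the DNA-binding partner of STAT2, was covered over 0, 266 and 233 bases against 0. Its peaks were among the weakest of their libraries, at the 5.62nd and 0.659th percentile, in different stretches of the gene. Stat2 had 159, 159 and 989 against 159, 0 and 156 bases, so that the groups overlapped. In 5 of the 6 libraries a Stat2 peak covered its first exon, in the 5′ UTR, and in editing-deficient replicate 3 a further 2 peaks lay in its 3′ UTR. Irf7, the master factor of type I interferon, and the chemokine Cxcl10 had no input peak.

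Of the 6 members that serve antigen presentation by MHC class I, 3 had an input peak in all 6 libraries. H2-K1, a classical class I heavy chain, was covered over 1568, 1683 and 1732 bases in editing-deficient and 1186, 1268 and 1272 bases in Mavs-/- livers. The groups did not overlap, with means of 1661 ± 84.2 and 1242 ± 48.5 bases (SD, n = 3, exact permutation p = 0.1). All 3 editing-deficient libraries had more coverage than any Mavs-/- library also with equal numbers of peaks, where replicate 1 was at 1436 bases. Per Mb covered the order of H2-K1 turned, to 447, 496 and 510 against 576, 726 and 515, since the editing-deficient lists covered more bases in all. The strongest H2-K1 peak was at the 91.7th, 96.1st and 98.9th percentile of peak area within the editing-deficient lists. Within the Mavs-/- lists it was at the 82.1st, 86.6th and 87.4th. A percentile depends on the length of its list, and the editing-deficient lists were longer, so these percentiles are not a separate measure of a difference. The same limit applies to the percentiles of Rnf213 and Igtp.

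H2-D1, the other classical heavy chain on the list, was covered over 1689, 1642 and 1403 against 1213, 1388 and 1406 bases (exact permutation p = 0.2). Only editing-deficient replicate 3 reached into the Mavs-/- range, by 3 bases below Mavs-/- replicate 3. B2m, the light chain shared by class I molecules, was nearly fully covered everywhere, at 759, 790 and 764 against 747, 712 and 763 of 860 exonic bases (exact permutation p = 0.2). With so much of the gene inside peaks, covered bases leave little room for a difference. Class I heavy chains share long stretches of sequence, and how reads matching several of them were placed is not given in the sources used here, so the values of H2-K1 and H2-D1 are uncertain. Per Mb covered, H2-D1, B2m and Ifitm3 were lower in all editing-deficient than in all Mavs-/- libraries, like H2-K1. For B2m and Ifitm3 no other order was possible, since full coverage would also have fallen below the Mavs-/- values.

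Tap1, a subunit of the peptide transporter that loads class I molecules, was covered over 0, 1246 and 1575 bases against 0 in all Mavs-/- livers (exact permutation p = 0.4). It kept 967 and 926 bases in editing-deficient replicates 2 and 3 when every list was limited to the same number of peaks. Psmb8, a catalytic subunit of the immunoproteasome and a neighbour of Tap1, was covered over 0, 709 and 755 bases against 0, and with equal numbers of peaks only editing-deficient replicate 3 kept a peak, of 467 bases. Psmb9, the other catalytic subunit at that locus, had no peak in any library.

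The interferon-inducible GTPases Gbp2 and Igtp restrict intracellular pathogens. Gbp2 was covered over 0, 961 and 1681 bases in editing-deficient and 0 in Mavs-/- livers (exact permutation p = 0.4), with 3 and 7 peaks from the first to the last exon. Igtp was covered over 0, 1903 and 1802 against 1000, 0 and 989 bases (exact permutation p = 0.6). In editing-deficient replicates 2 and 3 its peaks spanned 94.1% and 89.1% of the exonic length and belonged to the strongest of their libraries, at the 99.1st and 98.9th percentile of peak area, while in Mavs-/- replicates 1 and 3 they spanned 49.5% and 48.9% and reached the 33.8th and 90.9th percentile. A peak of 138 and 1 of 141 exonic bases in editing-deficient replicates 2 and 3 also overlapped an exon of Irgm2 on the same strand. GTPases of this family resemble one another in sequence, so reads may have been shared between them.

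Other genes of the pathway were counted from a list of 122 genes in 7 groups, none of them among the 38. An exonic input peak was found for 54 of the 122 in at least 1 library, and 68 had none. Coverage was higher in editing-deficient livers with groups not overlapping for 4 of the 54 (7.41%) and lower for 0, against 16.5% and 3.01% of all genes. Without editing-deficient replicate 1 it was higher for 26 of the 54 (48.1%), against 25.7% of all genes. With equal numbers of peaks it was higher for 2 of 34 (5.88%), against 10.7% of all genes, and for 7 of 33 (21.2%) when that library was also left out, against 14.8%. The 4 genes higher over all 6 libraries were Jak1, a kinase of the interferon receptors (869, 599 and 853 against 0, 0 and 0 bases), Tapbp or tapasin (2206, 2496 and 2560 against 1087, 0 and 1280), the GTPase Iigp1 (2299, 4306 and 3466 against 1352, 1077 and 1710) and the RNA helicase Ddx3x (2708, 1717 and 1091 against 827, 0 and 511). The median difference over the 54 genes was 242 bases, against 114 over all genes. It has the same limits as the median of the members.

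**Figure D3:**
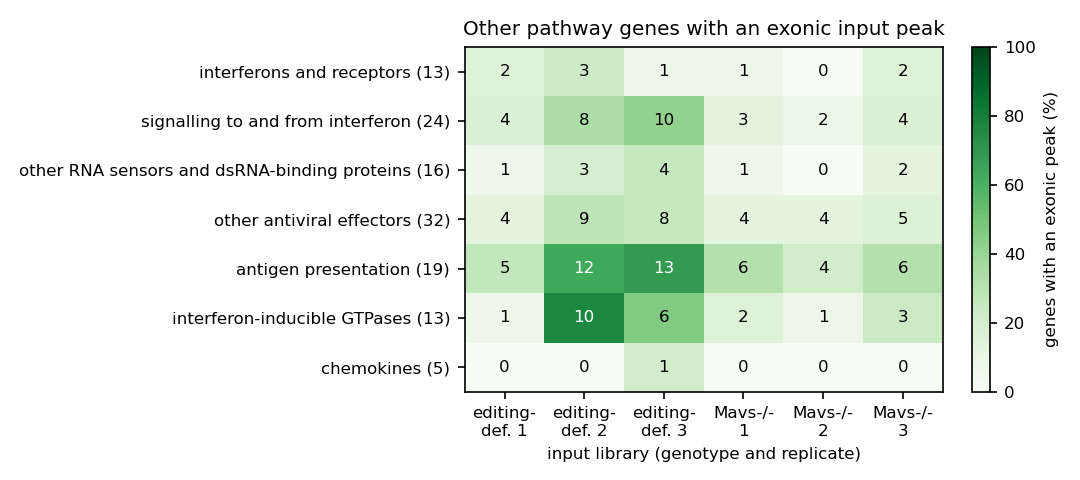
Number of genes with an exonic input peak in 7 groups of other pathway genes (rows, group size in brackets) in each input library (columns), coloured by the share of the group in percent. Antigen presentation has 12 and 13 of 19 genes and the interferon-inducible GTPases 10 and 6 of 13 genes in editing-deficient replicates 2 and 3, against 5 and 1 in replicate 1 and 4 to 6 and 1 to 3 in the Mavs-/- libraries.

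The same 2 libraries stood out in most groups. Of 19 genes of antigen presentation, 5, 12 and 13 were detected in editing-deficient and 6, 4 and 6 in Mavs-/- livers. Of 13 interferon-inducible GTPases, 1, 10 and 6 were detected against 2, 1 and 3. Gbp7 (0, 1961 and 2294 bases), Irgm1 (0, 1778 and 1703 bases) and the MHC class II gene H2-Ab1 (0, 527 and 475 bases) had no peak in any Mavs-/- input library. These 3 were named after their values were seen, as examples of the 18 pathway genes detected in at least 2 editing-deficient and no Mavs-/- input libraries. These 18 were 33.3% of the 54, against 14.3% of all genes, and the reverse pattern was met by 0 of the 54, against 2.45%. This pattern was not counted with equal numbers of peaks, and the editing-deficient lists were longer. None of the 7 interferon genes on the list and 1 of 5 chemokines, Cxcl9, had an exonic input peak.

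Digestion with RNase alone left few peaks over the members. An own-strand RNase-only peak was present over 4, 3 and 6 members in editing-deficient and over 7, 1 and 1 members in Mavs-/- livers, with means of 4.33 ± 1.53 and 3 ± 3.46 (SD, n = 3). The groups overlapped, and the difference of the means, 1.33, turned to -1 with equal numbers of peaks. Groups did not overlap in exonic coverage for 0 of the 9 members tested in either direction, against 2.23% of all genes higher and 0.846% lower in editing-deficient livers. Apart from Ifih1, described below, 8 members had exonic RNase-only peaks, each in 1 to 3 of the 6 libraries, and 5 of these 8 had no input peak.

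Eif2ak2 was the member with a recurring digestion-resistant site outside Ifih1. A single peak in the 3′ UTR in its last exon was called in RNase-only libraries of editing-deficient replicate 3 (348 bases), Mavs-/- replicate 1 (229 bases) and Mavs-/- replicate 2 (236 bases), and in the MDA5-protected library of editing-deficient replicate 3 (293 bases). All 4 peaks shared the 220 bases at chr17:78853848-78854067 on the minus strand. The site was thus called in both genotypes, and no difference between them was measurable with 1 and 2 libraries of 3.

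Oas1a had RNase-only peaks in editing-deficient replicates 1 and 2 (425 and 207 bases) and Mavs-/- replicate 1 (304 bases), in exons 4 and 7 of 7. Irf7 was covered in editing-deficient replicates 1 and 3 (121 and 277 bases) and Mavs-/- replicate 1 (503 bases). Ifi27 was covered in replicate 1 of both genotypes (128 and 393 bases). Oas1a has close paralogs at its locus, so its reads may be shared with them. Single RNase-only peaks lay over Ifit1 (127 bases, editing-deficient replicate 3), Irf1 (236 bases, Mavs-/- replicate 1), H2-K1 (179 bases, Mavs-/- replicate 1) and H2-D1 (201 bases, editing-deficient replicate 3). Ifit1 also had 1 peak each on the opposite strand in editing-deficient replicates 2 and 3 (121 and 103 exonic bases). Intronic own-strand peaks were rare among the members, with 3 of 303 peaks. They were a 116-base peak in Herc6 (RNase-only, editing-deficient replicate 2), a 111-base peak in Mx2 (RNase-only, editing-deficient replicate 3) and a 100-base peak in Igtp (MDA5-protected, editing-deficient replicate 2).

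In the MDA5-protected libraries, 3 of the 38 genes had an own-strand peak: Ifih1 in all 6, Eif2ak2 in 1 and Igtp in 1. The number of members with a peak was 1, 2 and 2 in editing-deficient and 1, 1 and 1 in Mavs-/- livers. None of the IFIT and OAS families, Mx1, Rsad2 and Cxcl10 had an MDA5-protected peak. Of the other 122 pathway genes 15 had an own-strand MDA5-protected peak, and for 3 of them it was exonic, namely Tbk1, Slfn5 and Irgm1, each in 1 library.

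Ifih1, which encodes MDA5 itself, was covered over 2393, 2309 and 2434 exonic bases in MDA5-protected libraries of editing-deficient livers and over 2315, 2419 and 2297 bases in those of Mavs-/- livers. The groups overlapped. In each of the 6 libraries Ifih1 ranked 1st of all 180 to 351 genes with an exonic peak, with 3.69% to 7.86% of all exonic bases covered. Ifih1 had no input peak in any library on either strand. An exonic MDA5-protected peak in all 6 libraries without any exonic input peak was found for 33 of 598 genes with an exonic MDA5-protected peak (5.52%), and Ifih1 was 1 of them.

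The position of these peaks was set against the coding sequence of transcript Ifih1-201, which has 3078 bases from start to stop codon in 16 coding exons, on the minus strand of chr2:62595798-62646255. The 13 to 14 own-strand peaks per library covered 74.5% to 79% of the coding bases, and 93.1% to 94.8% of the bases in these peaks were coding. Coding exons 4 to 16 were covered in all 6 libraries over 92.7% to 100% of their length, up to the stop codon. Coding exons 1 and 2 were covered in none of them, on either strand. Of the 26 to 28 peak edges per library, 20 to 23 lay within 10 bases of an edge of a coding exon.

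In 3 of the 6 libraries the coverage began inside coding exon 3, and in the other 3 it began at exon 4. The first covered coding base was 690 in editing-deficient replicate 1 and in Mavs-/- replicate 2, so that the first whole codon inside the peaks was codon 231. In editing-deficient replicate 3 it was base 646. Coding exon 3 is shown because coverage began within it, at chr2:62635056-62635202 on the minus strand, 147 bases written 5′ to 3′ along the gene. The 80 capitals are the bases inside the peak of editing-deficient replicate 1.
Ifih1 coding exon 3: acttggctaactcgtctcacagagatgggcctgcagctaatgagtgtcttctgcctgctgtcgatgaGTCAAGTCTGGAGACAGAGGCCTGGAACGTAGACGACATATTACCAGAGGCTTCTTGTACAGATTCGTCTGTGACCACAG

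Peaks over the same exons were also called on the opposite strand, where no gene is annotated. They covered 1006, 1028 and 1103 coding bases in editing-deficient and 1963, 1544 and 1274 in Mavs-/- MDA5-protected libraries. The genotypes did not overlap (exact permutation p = 0.1), and a smaller p cannot be reached with these group sizes. How often other opposite-strand stretches were free of overlap was not counted, so these values do not establish a genotype difference. The summed area of the opposite-strand peaks was below that of the own strand in each of the 6 libraries. These opposite-strand peaks too followed the exons of the spliced message, with 7 to 18 of their 10 to 20 edges within 10 bases of an exon edge.

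**Figure D4:**
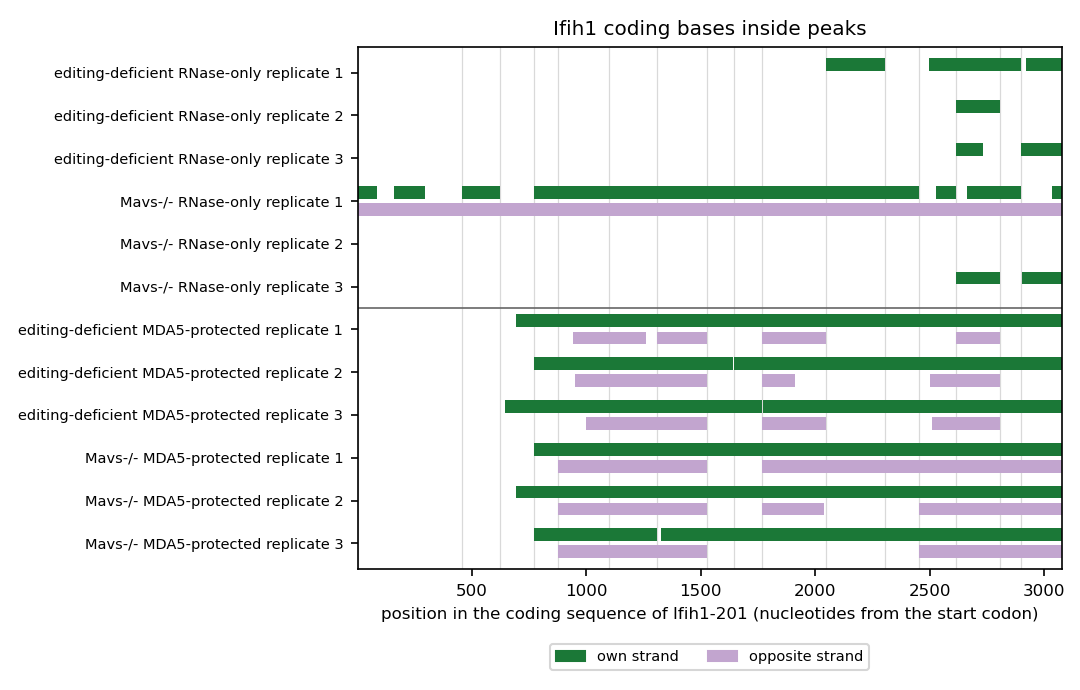
Bases of the Ifih1-201 coding sequence inside peaks, by position from the start codon in nucleotides, for the 12 digested libraries (rows), on the own strand (dark) and the opposite strand (light), with grey lines at exon borders. MDA5-protected rows are filled from base 646 to 770 onward to the stop codon, and Mavs-/- RNase-only replicate 1 is filled from the start codon on the opposite strand, while Mavs-/- RNase-only replicate 2 is empty.

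Without MDA5, own-strand Ifih1 coverage was 820, 191 and 296 coding bases in RNase-only libraries of editing-deficient livers and 2439, 0 and 364 in those of Mavs-/- livers. Mavs-/- RNase-only replicate 1 stood apart from the other 5. It was covered over 79.2% of the coding bases on the own strand and over 100% on the opposite strand, coding exons 1 and 2 included. The other RNase-only libraries had no opposite-strand peak over Ifih1, and their own-strand peaks began at base 2045 or later. Coding exon 14 was touched by a peak in each of the 5 RNase-only libraries that had any.

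The recombinant protein added to the MDA5-protected samples was made in bacteria from a mouse MDA5 cDNA that lacks the CARD domains at the amino terminus, and no protein was added to the RNase-only samples. The mouse MDA5ΔCARD clone of the study starts at the codon that was the first whole one inside the peaks of editing-deficient replicate 1 and Mavs-/- replicate 2. Coverage began before that codon, at base 646, in editing-deficient replicate 3. It began after it, at base 770, in editing-deficient replicate 2 and Mavs-/- replicates 1 and 3. Mavs-/- RNase-only replicate 1, to which no protein was added, was covered from the start codon. Coverage in the MDA5-protected libraries lacked the exons that encode the amino terminus and kept to coding exons on both strands, with no call in input. RNA of the liver and nucleic acid carried along with the protein cannot be told apart from peak positions, and the source was not tested. The sum of MDA5-protected coverage over all members was 2309 to 2727 bases per library with Ifih1 and 0 to 293 bases without it.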

How the data were processed

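Total liver RNA of 18 samples was sequenced with 75-base single-end reads from stranded libraries. After trimming by Trim Galore 0.6.6 and alignment to GRCm38 by NextGenMap, the authors called peaks for each library and strand separately in Genrich 0.6.1, with input as control for the digested libraries. The deposited score is the area under the significance curve, at least 500.008, and grows with depth, so that a deeper library can list more genes. The deposited −log10 P-values and −log10 adjusted P-values of the authors were not tested again. The lists hold no counts and no depth for each library, so no counting interval is given.

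Peaks were assigned by strand to the joined exons of all GENCODE M21 transcripts of a gene (minimum overlap 1 base), and otherwise to its introns. Exon numbers count joined exons from the 5′ end. Starts are counted from 1. Covered bases were compared between genotypes by two-sided exact permutation of 3 against 3 libraries, grouped by the labels, with Benjamini-Hochberg adjustment over all 5276 genes with an exonic input peak. Members with an exonic input peak in at least 2 libraries, or any peak in a digested library, are named with their values. The members and lists were chosen with earlier results of these data known. Of the alternatives, 14 were set with the design, while equal numbers of peaks without editing-deficient replicate 1 and the members' sum without Rnf213 were added after seeing the data. The steps were tested on simulated data. Python 3.11.15, numpy 2.4.6 and pandas 2.3.3 were used. Editing and protein sequences were not analysed here.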

Additional observations from a re-analysis of the deposited data

Results flagged for a closer look

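Peaks on the strand opposite to Ifih1, which the comparisons by own strand do not use, covered 1006 to 1963 coding bases in the 6 MDA5-protected libraries and up to 3078 in the RNase-only libraries, the latter in Mavs-/- replicate 1 alone, while the 6 input libraries were at 0. They are listed because a signal stood above input in data outside the main measurement, and their source was not tested. Groups held 3 libraries each, too few for a test of single outlying samples.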

How the results depend on the processing

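The count of members with higher input coverage in editing-deficient livers was 2 of the 16 with an input peak. It was 4 of 11 with a minimum peak area of 1000 and 1 of 16 per Mb covered. With a replicate left out it was 2 to 12 of 15 or 16. With equal numbers of peaks and editing-deficient replicate 1 left out it was 8 of 13. Members with lower coverage numbered 0, and 4 per Mb covered, where 17.4% of all genes were lower, against 3.01% unscaled. Over all genes, 870 of 5276 (16.5%) had higher coverage. The number was 384 of 3592 (10.7%) with equal numbers of peaks and 389 of 2343 (16.6%) at a minimum area of 1000. Per Mb covered it was 474 of 5276 (8.98%), and with a replicate left out 995 to 1329 (19% to 25.7%). With equal numbers of peaks and editing-deficient replicate 1 left out it was 515 of 3481 (14.8%). The difference in members with an RNase-only peak, 1.33 per library, reversed to -1 with equal numbers of peaks. The difference in members with an MDA5-protected peak, 0.667, was 0 at a minimum area of 1000. Per Mb covered the differences of Ifitm3 (-95.4), B2m (-135), H2-K1 (-121) and H2-D1 (-192) reversed, as the editing-deficient lists covered more bases in all. For Ifitm3 and B2m even full coverage in editing-deficient livers would have left the difference negative. For the other reversed or moved values the cause was not tested. An overlap of 50 bp, strands ignored, basic transcripts and shared peaks left out moved no count over 1.5 times. Whether same-numbered replicates share more than a number is not given in the sources used here. Their deviations from the group means correlated at -0.002, 0.003 and -0.045 in input across genes. Differently numbered pairs gave -0.048 to 0.045, so these correlations do not decide it. With the replicate block 3 of 16 members were higher, against 1155 of 5276 genes (21.9%). Depth was not taken into account, which limits what a missing peak means, above all for short or weakly expressed genes in the shorter Mavs-/- lists.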
